A study of Mus musculus with 16 samples.

Results

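The genes described here are 33 components of the actin cytoskeleton and of focal adhesions, taken by mouse symbol from a table of 27179 gene identifiers. They comprise actins, non-muscle and smooth muscle myosin II chains, tropomyosins, crosslinkers and bundlers, monomer-binding and capping proteins, focal adhesion and LIM domain proteins, calponins, transgelins and the transcription factor Srf. Of these, 4 are forms best known from smooth muscle (Acta2, Tagln, Cnn1 and Myl9), and 29 are forms used by non-muscle cells, epithelium included. All 33 passed the filter on low counts. The RNA came from mouse AT2 cells, alveolar epithelial cells that make surfactant, which were sorted by surface CD44. There were 8 animals, 16 libraries and 4 groups of 4.

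The groups are named by the column headers of the count table: OG CD44+ and OG CD44- from animals 3, 5, 6 and 7, and R26 CD44+ and R26 CD44- from animals 1, 2, 7 and 8. The sample labels give genotypes, SP-C WT and SP-C Mutant, by title, but none ties a genotype to the prefix OG or R26. The same treatment text, OG TMX, stands on every sample. Reading OG as the Sftpc mutant and R26 as the control is therefore an inference, which the CD44 comparisons within a prefix do not need. The mutation, the allele's driver, the strain and the ages of the mice are not given in the sources used here. Sorting depleted CD45 and CD31 cells and then gated on Epcam and high CD200 without CD104, before the split by CD44.

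Actin is a globular protein that polymerises into filaments. Filaments are nucleated and elongated by the Arp2/3 complex and by formins, bundled by alpha-actinins and fascin, and pulled on by myosin II, whose light chains switch the motor on when phosphorylated. At focal adhesions, talin, vinculin, paxillin and zyxin link filament ends to integrins. In the alveolus, actin and myosin II are known for the flat, spread shape and the tension of cells that cover the gas-exchange surface, while Acta2, Tagln and Cnn1 are commonly read as markers of smooth muscle cells and myofibroblasts. Serum response factor (SRF), with myocardin-related cofactors that bind free actin monomers, drives many of these genes through a DNA element called the CArG box.

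Because SRF and its targets are both among the genes described, the promoter sequences that hold a CArG box are shown here. A window from 250 bases before to 50 bases after the RefSeq start site (build GRCm38.p6) was on hand for 30 of the 33 genes, and not for Actb, Tagln and Pxn. Of these 30 genes, of which Tpm3 and Pdlim5 had 2 windows each, 6 held a CArG box (20%), against 488 of all 27025 genes with a window (1.81%). The element reads the same on both strands and was matched without mismatch. Capitals mark the boxes, and each stretch is written 5′ to 3′ on the gene's own strand.
Myl9: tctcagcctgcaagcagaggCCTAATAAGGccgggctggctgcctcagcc
Cnn2: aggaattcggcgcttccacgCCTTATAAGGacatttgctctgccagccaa
Actg1: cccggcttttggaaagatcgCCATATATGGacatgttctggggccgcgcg
Vcl: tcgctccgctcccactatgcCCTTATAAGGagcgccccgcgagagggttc
Lima1: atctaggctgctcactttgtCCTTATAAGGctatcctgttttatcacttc
Srf: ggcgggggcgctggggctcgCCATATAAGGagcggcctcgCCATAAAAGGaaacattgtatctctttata
The stretches lie at chr2:156775283-156775332 on the plus strand, chr10:79988524-79988573 on the plus strand, chr11:120348556-120348605 on the minus strand, chr14:20929151-20929200 on the plus strand, chr15:99820167-99820216 on the minus strand and chr17:46556195-46556264 on the minus strand. The boxes of Lima1, Cnn2 and Actg1 begin 47, 56 and 90 bases before the start site, those of Myl9 and Vcl begin 161 and 227 bases before it, and Srf holds a pair of boxes, 82 and 62 bases before its own start. The genes Lima1 and Srf extend upstream beyond these windows, to chr15:99875477 and chr17:46558267, so the start sites used for them lie inside the gene. Of the 3 smooth muscle forms with a window (Acta2, Cnn1 and Myl9), Myl9 held an exact box. The Acta2 window holds ccctatatgg and ccttgtttgg, each off the element by a base, which the exact match leaves out. Inexact boxes were not counted in any window, so a gene without an exact box may still hold a near match. The share is a description of these windows and says nothing of binding in the cells.

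The libraries held 9022471 to 21363816 counts each. Levels are given in CPM, a count scaled by its library's size after TMM normalization, either per library in order of animal number or as mean ± SD (n = 4). Each difference is a log2 fold change with its SE. A gene was called where edgeR's quasi-likelihood test gave an adjusted p under 0.05, by Benjamini-Hochberg over the 15516 genes tested. In OG CD44- against R26 CD44- cells the median of all genes tested lay at 0.12 and not at 0, and upper quartile scaling moved it to 0.00. Sftpc, the gene named in the genotype labels, stood at 6696 ± 684 CPM in OG CD44+ cells, 11684 ± 432 in OG CD44- cells, 54364 ± 12253 in R26 CD44+ cells and 79592 ± 7872 in R26 CD44- cells. The labels do not describe the mutation, so this level checks no genotype. Cd44, the gate, was at 914 ± 22.6 CPM in OG CD44+ cells, 562 ± 24.1 in OG CD44- cells, 469 ± 77.4 in R26 CD44+ cells and 329 ± 4.45 in R26 CD44- cells. Of 10 AT2 markers, 10 were lower in each of the 4 pairwise comparisons, against 15.4% to 34.6% of all genes. Their summed level ran over 21055 to 25412 CPM in OG CD44+ cells and 42902 to 45893 in OG CD44- cells. In R26 it ran over 92811 to 133393 CPM in CD44+ cells and 140750.3 to 165544 in CD44- cells. On the second principal component (24.3% of variance) OG CD44+ animal 3 lay at -29.3, apart from -9.11 to -8.40 in the other OG CD44+ libraries.

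**Figure D1:**
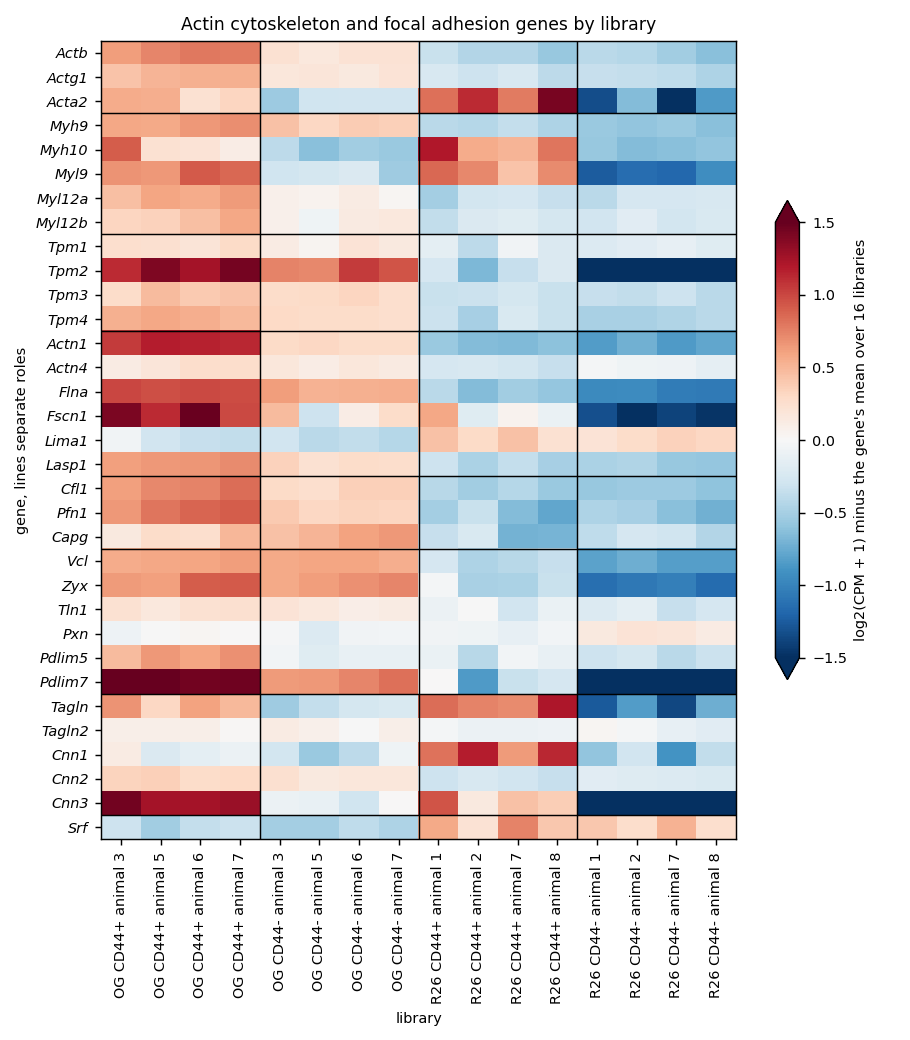
Level of each of the 33 genes in each of the 16 libraries, as log2(CPM + 1) minus the mean of the gene over all libraries, with red above and blue below that mean and colours ending at 1.5 either way. Most rows are reddest in the 4 OG CD44+ columns, while Acta2, Tagln and Cnn1 are reddest in the R26 CD44+ columns and Srf and Lima1 are redder in R26 than in OG columns.

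Of the 29 non-muscle forms, 24 had their highest mean in OG CD44+ cells, as did 24.3% of all genes tested, 3 in R26 CD44+ cells (Myh10, Lima1 and Srf), 1 in OG CD44- cells (Capg) and 1 in R26 CD44- cells (Pxn). Of the 4 smooth muscle forms, Acta2, Tagln and Cnn1 were highest in R26 CD44+ cells and Myl9 in OG CD44+ cells, although the ranges of Myl9 in the CD44+ groups overlapped. Of the 24 non-muscle forms highest in OG CD44+ cells, 17 were called above OG CD44- cells, and Tpm1, Tpm3, Actn4, Vcl, Zyx, Tln1 and Tagln2 were not. The lowest mean lay in R26 CD44- cells for 20 of the 29 non-muscle forms and for all 4 smooth muscle forms, as for 29.5% of all genes. Summed over the 29 non-muscle genes, the level was 17427 ± 562 CPM in OG CD44+ cells, 13292 ± 242 in OG CD44- cells, 8639 ± 374 in R26 CD44+ cells and 8079 ± 327 in R26 CD44- cells, a sum that Actb dominates. Summed over the 4 smooth muscle genes it was 70.4 ± 3.93, 38.0 ± 2.86, 99.2 ± 17.6 and 22.3 ± 5.86 CPM in the same groups.

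The first question was how CD44+ cells differ from CD44- cells of the same animals. In OG animals, 21 of the 33 genes were higher in CD44+ cells, against 22.3% of all genes tested, and 1 was lower, against 28.0% (50.4% of all genes in either direction). Their median log2 fold change was 0.37, against -0.06 over all genes. In R26 animals, 14 of the 33 were higher, against 21.6% of all genes, and 2 were lower, against 15.4% (37.1% either way), with a median of 0.12 against -0.02. Over all genes, upper quartile scaling turned the OG split of 3464 higher and 4351 lower into 4140 and 3097, and DESeq2 size factors turned the R26 split of 3357 and 2393 into 3174 and 3435. Without any 1 of the 8 R26 libraries, 3830 to 4098 genes were higher and 3474 to 3816 lower in OG, and 2898 to 3260 higher and 3519 to 4429 lower in R26. With each animal as a block, 23 and 1 genes were called in OG, with Tpm1 (adjusted p = 0.0211) and Tpm3 (0.0242) added as higher. The block gave 20 and 3 in R26, where Actg1 (0.0481), Lasp1 (0.0374), Pdlim5 (0.0425), Srf (0.0414), Tln1 (0.0127) and Tpm4 (0.0250) were added as higher and Cnn2 (0.0418) as lower.

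The second question was how OG cells differ from R26 cells in the same sort. In CD44- cells, 28 of the 33 genes were higher in OG, against 39.4% of all genes, and 3 were lower, against 29.6% (69.0% either way), with a median log2 fold change of 0.73 against 0.12 over all genes. In CD44+ cells, 25 were higher, against 34.5% of all genes, and 5 were lower, against 34.6% (69.1% either way), with a median of 0.80 against -0.01. The same 25 genes, all non-muscle forms, were higher in OG in both sorts, against 29.1% of all genes, and Lima1 and Srf were lower in both, against 25.1%. Of the 4 smooth muscle forms, 3 were higher in OG in the CD44- sort and 3 were lower in the CD44+ sort. The interaction, the CD44 difference in OG minus that in R26 on the log2 scale, was above 0 for 12 of the 33 genes, against 6.57% of all genes, and below 0 for 10, against 18.1% (24.7% either way). Over all genes TMM scaling gave 1019 above and 2806 below 0, DESeq2 size factors 1460 and 2275, and upper quartile scaling 1412 and 2329. Without any 1 of the 8 R26 libraries the split was near even, 1720 to 2419 above and 1651 to 2104 below, so the skew of all genes below 0 was not stable. The counts of these 33 genes ranged over 12 to 16 above and 10 to 11 below when 1 library was left out.

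**Figure D2:**
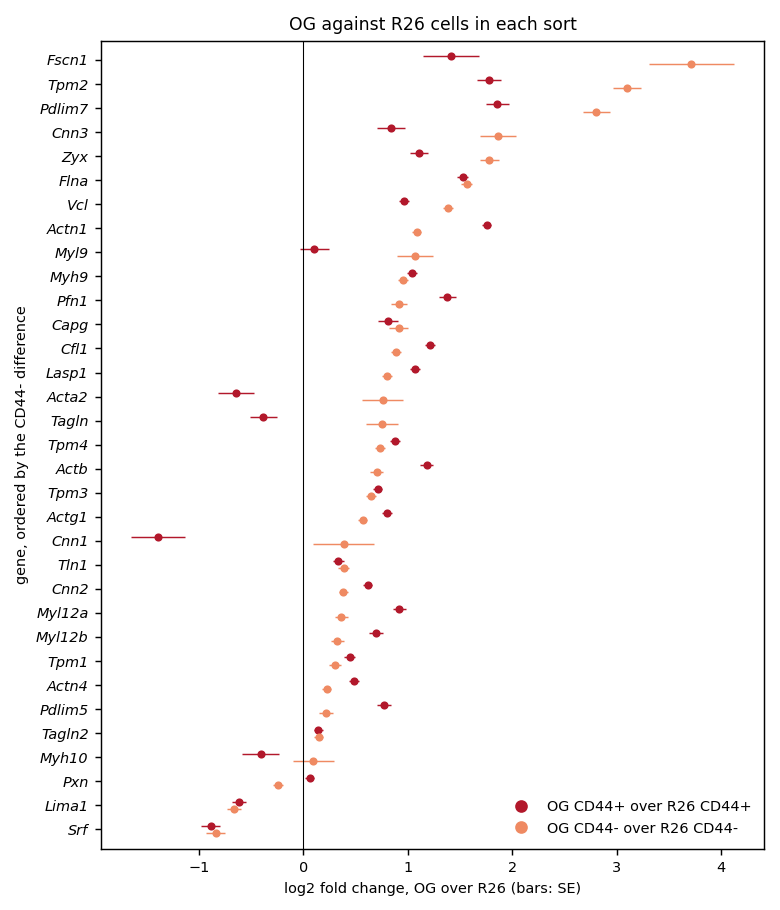
Log2 fold change of each gene, OG over R26 cells, in the CD44+ sort (dark red) and the CD44- sort (orange), with bars for 1 SE. Genes are ordered by the CD44- difference. Acta2, Tagln and Cnn1 lie left of 0 in the CD44+ sort and right of 0 in the CD44- sort, and Srf and Lima1 lie left of 0 in both.

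Among the actins, the cytoplasmic beta form Actb, the main actin of non-muscle cells, measured 7123, 7627, 7961 and 7912 CPM in OG CD44+ libraries, 5376, 5148, 5328 and 5356 in OG CD44- libraries, 3641, 3399, 3399 and 3092 in R26 CD44+ libraries and 3462, 3402, 3206 and 2969.9 in R26 CD44- libraries. All OG CD44+ libraries lay above all OG CD44- libraries, which lay above every R26 library, and the R26 sorts overlapped. Actb was 1.44-fold higher in OG CD44+ than in OG CD44- cells (log2 fold change 0.53 ± 0.06, adjusted p = 1.64e-07), while the R26 sorts gave 0.05 ± 0.06 (adjusted p = 0.525). The difference between these CD44 effects was 0.48 ± 0.09 (adjusted p = 0.000227). OG exceeded R26 by 1.18 ± 0.06 (adjusted p = 2.24e-14) in CD44+ cells and by 0.70 ± 0.06 (adjusted p = 3.19e-10) in CD44- cells. Actg1, the cytoplasmic gamma form, averaged 567 ± 18.7 CPM in OG CD44+ cells, 452 ± 7.81 in OG CD44- cells, 326 ± 16.6 in R26 CD44+ cells and 306 ± 11.4 in R26 CD44- cells. It kept the order of Actb, with a CD44 difference of 0.33 ± 0.05 in OG and 0.09 ± 0.05 in R26 and an interaction of 0.23 ± 0.06 (adjusted p = 0.0105). Of the 50-base words in Actg1 transcripts, 37.4% also occur in other genes, mostly Gm12715, so its counts are less certain than those of Actb (9.12%).

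Acta2, the smooth muscle alpha actin, followed another order. It measured 37.1, 36.6, 29.3 and 31.4 CPM in OG CD44+ libraries, 16.7, 19.97, 20.2 and 20.2 in OG CD44- libraries, 44.8, 54.9, 43.3 and 68.0 in R26 CD44+ libraries and 9.25, 15.4, 7.76 and 13.4 in R26 CD44- libraries. The R26 CD44+ libraries were the highest with no overlap, the OG CD44+ libraries came next, and the OG CD44- libraries lay above the R26 CD44- libraries. Acta2 was 1.74-fold higher in CD44+ than in CD44- cells of OG animals (0.80 ± 0.18, adjusted p = 0.00191) and 4.62-fold higher in R26 animals (2.21 ± 0.19, adjusted p = 4.47e-07). The CD44 difference in OG minus that in R26 was -1.41 ± 0.26 (adjusted p = 0.0014). OG against R26 gave -0.65 ± 0.17 (adjusted p = 0.00416) in CD44+ cells and 0.76 ± 0.20 (adjusted p = 0.00364) in CD44- cells, opposite directions in the sorts. Per length of the longest coding transcript, Acta2 made up 0.387 ± 0.0614% of the 3 actins in OG CD44+ cells, 0.316 ± 0.0304% in OG CD44- cells, 1.34 ± 0.374% in R26 CD44+ cells and 0.304 ± 0.0978% in R26 CD44- cells. Actb held 92.8 ± 0.181%, 92.0 ± 0.210%, 90.1 ± 0.482% and 91.3 ± 0.287% in those groups.

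Tagln, which encodes the smooth muscle actin-binding protein transgelin, measured 27.5, 21.1, 26.1 and 23.9 CPM in OG CD44+ libraries, 11.3, 12.9, 13.8 and 14.2 in OG CD44- libraries, 31.0, 29.0, 28.2 and 40.2 in R26 CD44+ libraries and 6.44, 8.99, 5.92 and 9.69 in R26 CD44- libraries. Its groups stood in the order of Acta2, and neighbouring groups did not overlap. The CD44 difference was 0.91 ± 0.14 (adjusted p = 1.1e-05) in OG and 2.05 ± 0.15 (adjusted p = 7e-10) in R26, with an interaction of -1.14 ± 0.20 (adjusted p = 0.000257). In CD44+ cells OG against R26 gave -0.39 ± 0.13 (adjusted p = 0.0128). That call was lost without R26 CD44+ animal 8 or OG CD44+ animal 5 (adjusted p = 0.0536 to 0.0950, log2 fold change -0.31 to -0.24). In CD44- cells OG lay above R26 by 0.75 ± 0.15 (adjusted p = 0.000162). An antisense gene overlaps 62.4% of the exon bases of Tagln, and although the kit was stranded, per the labels, the strand setting of the counting is not given in the sources used here. Reads of both genes may be mixed.

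Cnn1, calponin 1 of smooth muscle, had the fewest counts of the 4 forms. It measured 2.22, 1.54, 1.66 and 1.78 CPM in OG CD44+ libraries, 1.44, 1.003, 1.25 and 1.82 in OG CD44- libraries, 4.21, 5.70, 3.59 and 5.47 in R26 CD44+ libraries and 0.966, 1.42, 0.592 and 1.29 in R26 CD44- libraries. The R26 CD44+ libraries stood above all others, and the OG CD44- libraries overlapped both OG CD44+ and R26 CD44- libraries. The CD44 difference was 0.37 ± 0.27 (adjusted p = 0.273) in OG animals and 2.15 ± 0.27 (adjusted p = 9.78e-07) in R26 animals, where Cnn1 was 4.43-fold higher in CD44+ cells, and the interaction was -1.78 ± 0.39 (adjusted p = 0.00152). In CD44+ cells OG against R26 gave -1.39 ± 0.26 (adjusted p = 4.12e-05), and the CD44- sorts gave 0.39 ± 0.29 (adjusted p = 0.242). Counts of Cnn1 summed to 92 in OG CD44+, 93 in OG CD44-, 191 in R26 CD44+ and 58 in R26 CD44- libraries, so small differences were not detectable.

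Myl9, the myosin regulatory light chain abundant in smooth muscle, measured 9.53, 9.37, 11.5 and 11.0 CPM in OG CD44+ libraries, 4.38, 4.51, 4.66 and 3.58 in OG CD44- libraries, 11.0, 9.86, 7.90 and 9.80 in R26 CD44+ libraries and 1.77, 1.999, 1.91 and 2.45 in R26 CD44- libraries. Both CD44+ groups lay above both CD44- groups and overlapped each other. The CD44 difference was 1.27 ± 0.14 (adjusted p = 1.45e-07) in OG and 2.23 ± 0.16 (adjusted p = 2.01e-10) in R26, with an interaction of -0.96 ± 0.22 (adjusted p = 0.0022). OG exceeded R26 by 1.07 ± 0.17 (adjusted p = 5.46e-06) in CD44- cells, and the CD44+ cells gave 0.10 ± 0.14 (adjusted p = 0.522). Myl9 thus parted from Acta2, Tagln and Cnn1, which were lower in OG in the CD44+ sort. It shared with them the lower CD44 effect in OG, and its promoter window holds the CArG box printed above.

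**Figure D3:**
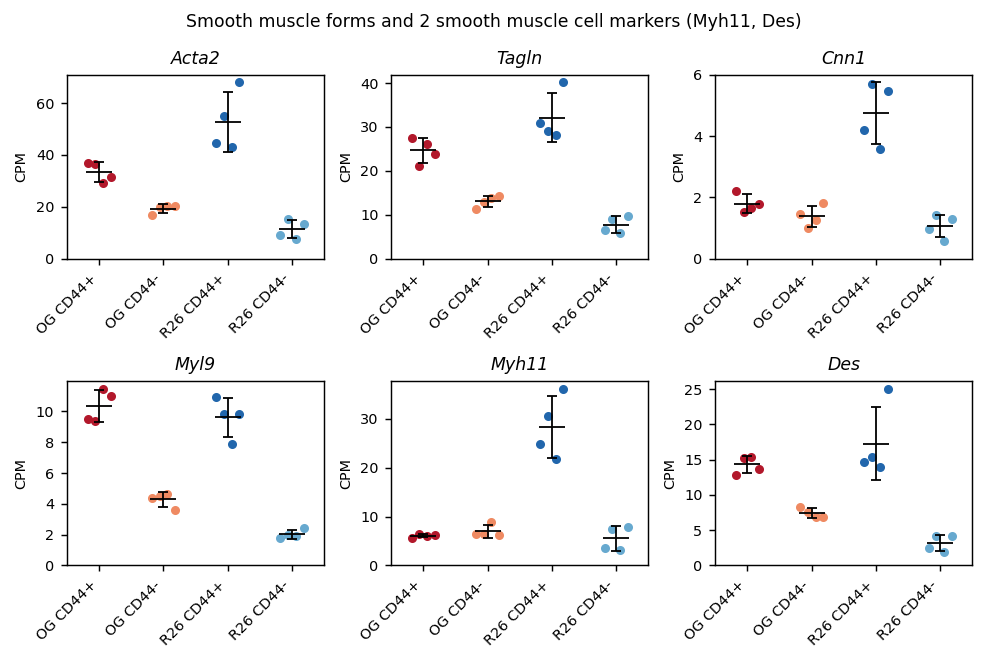
CPM of the 4 smooth muscle forms and of the smooth muscle cell markers Myh11 and Des in each library, with points for animals and bars for mean ± SD (n = 4); each panel starts at 0. R26 CD44+ libraries are the highest for Acta2, Tagln, Cnn1 and Myh11, while Myl9 and Des reach similar levels in both CD44+ groups.

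Levels of smooth muscle and mural cell markers were set beside these 4 genes, which they followed in part. Of 14 such markers in the table, 12 were tested. In OG, 6 of the 12 were higher in CD44+ cells (50%, against 22.3% of all genes) and 1 lower (8.33%, against 28.0%). In R26, 11 were higher (91.7%, against 21.6%) and 0 lower. Between prefixes, 0 were higher and 7 lower in OG CD44+ than in R26 CD44+ cells (58.3% lower, against 34.6%), and 7 were higher and 2 lower in OG CD44- than in R26 CD44- cells (58.3% higher, against 39.4%). The interaction was below 0 for 9 (75.0%, against 18.1%) and above 0 for 0. Myh11, the smooth muscle myosin heavy chain, averaged 6.11 ± 0.329 CPM in OG CD44+ cells, 6.98 ± 1.29 in OG CD44- cells, 28.3 ± 6.27 in R26 CD44+ cells and 5.52 ± 2.47 in R26 CD44- cells. Its CD44 difference was -0.21 ± 0.25 (adjusted p = 0.526) in OG and 2.36 ± 0.24 (adjusted p = 8.14e-07) in R26. Des, the muscle intermediate filament protein desmin, averaged 14.3 ± 1.22 CPM in OG CD44+ cells, 7.40 ± 0.713 in OG CD44- cells, 17.2 ± 5.18 in R26 CD44+ cells and 3.18 ± 1.15 in R26 CD44- cells, and Pdgfrb, a receptor of pericytes and fibroblasts, 33.7 ± 7.53 CPM in OG CD44+ cells, 15.4 ± 1.04 in OG CD44- cells, 36.9 ± 5.72 in R26 CD44+ cells and 5.05 ± 0.808 in R26 CD44- cells. The 14 summed levels ran over 266 to 320.4 CPM in OG CD44+, 265 to 284 in OG CD44-, 408 to 475 in R26 CD44+ and 341 to 372 in R26 CD44- libraries. Unlike the sum of the 4 smooth muscle forms, this sum was lower in OG CD44+ than in R26 CD44- libraries. Mylk, the myosin light chain kinase that AT2 libraries also held at 182 ± 17.4, 214 ± 8.02, 300.3 ± 14.7 and 327 ± 9.56 CPM in those groups, made up most of each sum. Mylk was itself lower in OG CD44+ than in R26 CD44- cells, while the means of Myh11, Des and Pdgfrb were higher. For both Mylk and the sum, the means of the R26 groups lay above those of the OG groups. Within each prefix the mean of the sum was higher in CD44+ cells, while that of Mylk was higher in CD44- cells. A sum without Mylk was not taken. No marker of this list was at 0 in a whole group, and the part of these cells in the levels of Acta2, Tagln, Cnn1 and Myl9 was not tested. In bulk libraries, fewer cells of a type and less RNA per cell cannot be told apart.

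Markers of other cell types differed between groups as well, and their counts stand against the same shares of all genes. Of 14 fibroblast markers, 14 were higher in OG CD44+ than in OG CD44- cells, 13 in R26 CD44+ than in R26 CD44- cells and 13 in OG CD44- than in R26 CD44- cells, while 4 were higher and 3 lower in OG CD44+ than in R26 CD44+ cells. Their summed level was 2958 to 4523, 1574 to 1684, 1929 to 3368 and 609 to 667 CPM in OG CD44+, OG CD44-, R26 CD44+ and R26 CD44- libraries. Col1a1 averaged 686 ± 154, 289.6 ± 13.5, 226 ± 92.3 and 25.0 ± 3.35 CPM there. Of 8 endothelial markers, 0 were higher and 6 lower in OG CD44+ than in OG CD44- cells, and 7 higher and 1 lower in R26 CD44+ than in R26 CD44- cells. Their summed level was 108 to 114, 185 to 196, 205 to 225 and 137 to 157 CPM. Of 8 leukocyte markers tested, 6 were higher and 1 lower in the OG CD44 comparison and 7 and 1 in R26, with summed levels of 121 to 148, 127 to 139, 233 to 320.0 and 259 to 294 CPM, most of it Lcp1. Ptprc, which encodes CD45, had 9 counts over the 4 R26 CD44- libraries, and 1 leukocyte marker was at 0 in all of them. Of 5 ciliated and 5 club and secretory cell markers, 5 and 5 were higher in OG CD44+ than in OG CD44- cells. In R26 CD44+ against R26 CD44- cells 4 and 4 were higher, with 0 lower in either prefix. In the same group order, summed levels were 168 to 216, 55.8 to 62.3, 32.5 to 86.9 and 22.2 to 39.4 CPM for ciliated markers. Those of club and secretory markers were 1795 to 2484, 629 to 754, 1779 to 3262 and 546 to 1173 CPM. The part of these cells in the results below was not tested. Of 9 AT1 markers, genes of the flat alveolar cells, 9 were higher and 0 lower in OG CD44- than in R26 CD44- cells, and 7 and 2 in the CD44+ sort. By CD44 sort, 5 were higher and 2 lower in OG, and 7 and 1 in R26. The interaction was below 0 for 6 and above 0 for 0. In the same group order, summed levels of AT1 markers were 5111 to 5586, 4921 to 5438, 2724 to 3131 and 2081 to 2300 CPM. The part of AT1 cells was not tested either.

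Among the non-muscle myosin II genes, the heavy chain Myh9 was higher in OG in both sorts. Myh9 measured 1391, 1373, 1462 and 1512 CPM in OG CD44+ libraries, 1256, 1151, 1206 and 1192 in OG CD44- libraries, 701, 692, 728 and 673 in R26 CD44+ libraries and 632, 618, 631 and 601 in R26 CD44- libraries. Both OG groups lay far above both R26 groups, with 1.04 ± 0.05 (adjusted p = 1.42e-15) in CD44+ cells and 0.95 ± 0.05 (adjusted p = 6.51e-15) in CD44- cells. Its CD44 difference was called in OG (0.26 ± 0.05, adjusted p = 7.16e-05) and in R26 (0.17 ± 0.05, adjusted p = 0.00545), and the R26 call was lost in each of the 8 fits that left out 1 R26 library (adjusted p = 0.0555 to 0.209). Myh10, the other heavy chain, measured 78.3, 48.4, 47.9 and 44.8 CPM in OG CD44+ libraries, 31.3, 26.5, 28.6 and 27.8 in OG CD44- libraries, 96.7, 61.2, 59.4 and 73.1 in R26 CD44+ libraries and 27.6, 26.1, 26.3 and 27.0 in R26 CD44- libraries. It was higher in CD44+ cells of both prefixes, by 0.94 ± 0.18 (adjusted p = 0.000806) in OG and 1.44 ± 0.19 (adjusted p = 3.68e-05) in R26, and animals 3 and 1 were high in their CD44+ groups. OG CD44+ against R26 CD44+ gave -0.41 ± 0.18 (adjusted p = 0.0558), which passed the threshold without OG CD44+ animal 3 (log2 fold change -0.62, adjusted p = 0.000283) and without R26 CD44+ animal 7 (-0.48, 0.0417). It also passed under the DESeq2 Wald test (0.0173), voom with quality weights (0.00503), upper quartile scaling (0.0351) and the filter of 50 counts in 4 libraries (0.0342). The interaction gave -0.51 ± 0.26 (adjusted p = 0.188) and passed without OG CD44+ animal 3 (-0.72, adjusted p = 0.00566). Per length, Myh10 made up 3.53 ± 1.06% of both heavy chains in OG CD44+, 2.21 ± 0.0754% in OG CD44-, 9.01 ± 1.98% in R26 CD44+ and 3.95 ± 0.128% in R26 CD44- cells.

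The regulatory light chains of non-muscle myosin, Myl12a and Myl12b, were higher in CD44+ cells of OG animals, and this CD44 difference exceeded that in R26 animals. Myl12a averaged 86.1 ± 4.61 CPM in OG CD44+ cells, 61.1 ± 1.70 in OG CD44- cells, 45.7 ± 3.70 in R26 CD44+ cells and 47.5 ± 2.53 in R26 CD44- cells, with 0.50 ± 0.06 (adjusted p = 2.41e-07) in OG, -0.06 ± 0.06 (adjusted p = 0.501) in R26 and an interaction of 0.55 ± 0.09 (adjusted p = 3.99e-05). Myl12b averaged 95.2 ± 8.11 CPM in OG CD44+ cells, 74.4 ± 5.09 in OG CD44- cells, 58.9 ± 3.30 in R26 CD44+ cells and 59.5 ± 2.32 in R26 CD44- cells, with an interaction of 0.37 ± 0.09 (adjusted p = 0.00372). The OG CD44+ libraries stood above all others for both genes, and the R26 sorts overlapped. Myl12a and Myl12b are near copies that share part of their sequence, so reads may be split between them. Per length, Myl9 was 9.34 ± 0.629% of the 3 light chains in OG CD44+ cells, 5.43 ± 0.655% in OG CD44- cells, 14.4 ± 2.40% in R26 CD44+ cells and 3.32 ± 0.394% in R26 CD44- cells.

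Tropomyosins are coiled coils that lie along the filament and set which proteins may bind it. All 4 genes were higher in OG in both sorts, against 29.1% of all genes. Tpm2, the form prominent in muscle and in contractile stress fibres, changed most. Tpm2 measured 24.3, 29.8, 26.7 and 30.5 CPM in OG CD44+ libraries, 18.5, 18.2, 23.0 and 21.3 in OG CD44- libraries, 8.80, 6.30, 8.17 and 9.05 in R26 CD44+ libraries and 2.41, 2.08, 2.57 and 2.39 in R26 CD44- libraries. The 4 groups did not overlap, and each OG library lay above each R26 library. Tpm2 was 8.54-fold higher in OG in CD44- cells (3.09 ± 0.13, adjusted p = 5.91e-16) and 3.42-fold in CD44+ cells (1.78 ± 0.12, adjusted p = 1.63e-12). Its CD44 difference was 0.45 ± 0.10 in OG and 1.77 ± 0.15 in R26, with an interaction of -1.32 ± 0.18 (adjusted p = 1.06e-05). Tpm1, Tpm3 and Tpm4 were higher in OG by 0.30, 0.65 and 0.73 on the log2 scale in CD44- cells and by 0.44, 0.71 and 0.88 in CD44+ cells. Within OG, Tpm4 was called by CD44 sort (0.26 ± 0.05, adjusted p = 8.57e-05), and Tpm1 (0.11 ± 0.06, adjusted p = 0.0899) and Tpm3 (0.11 ± 0.04, adjusted p = 0.0502) were not. Most alternatives called both higher in OG CD44+ cells: 14 of 24 for Tpm1, including each fit without 1 of the 8 R26 libraries, and 16 of 24 for Tpm3, including these 8 fits.

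Of the 6 crosslinkers and bundlers, 5 were higher and 1 was lower in OG in each sort. Of all genes, 39.4% were higher and 29.6% lower in the CD44- sort, and 34.5% and 34.6% in the CD44+ sort. Actn1, a non-muscle alpha-actinin that bundles filaments in stress fibres and adhesions, measured 748, 820.3, 803 and 790.2 CPM in OG CD44+ libraries, 441, 446, 438 and 437 in OG CD44- libraries, 244, 229, 228 and 236 in R26 CD44+ libraries and 202, 219, 199.8 and 209 in R26 CD44- libraries. OG CD44+ libraries stood well above OG CD44- libraries, and these stood above all R26 libraries. Actn1 was 3.37-fold higher in OG CD44+ than in R26 CD44+ cells (1.75 ± 0.05, adjusted p = 4.74e-20) and 1.80-fold higher in OG CD44+ than in OG CD44- cells (0.84 ± 0.04, adjusted p = 5.01e-13). The interaction was 0.67 ± 0.06 (adjusted p = 4.37e-08). The R26 CD44 difference (0.17 ± 0.04, adjusted p = 0.00329) lost its call without R26 CD44- animal 1, 7 or 8, or without R26 CD44+ animal 1 or 8 (0.0626 to 0.141). Actn4, its close relative, ranged over 509.9 to 564, 509 to 529, 370.2 to 399 and 428 to 462 CPM in OG CD44+, OG CD44-, R26 CD44+ and R26 CD44- libraries. Its CD44 difference was 0.06 ± 0.04 (adjusted p = 0.293) in OG and -0.20 ± 0.04 (adjusted p = 0.000884), a call, in R26, with an interaction of 0.26 ± 0.06 (adjusted p = 0.00377).

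Flna, filamin A, which joins filaments into a gel and ties them to integrins, measured 1820.4, 1776, 1805 and 1795 CPM in OG CD44+ libraries, 1408, 1308, 1321 and 1321 in OG CD44- libraries, 685, 578, 630.3 and 609.7 in R26 CD44+ libraries and 467, 472, 439 and 435 in R26 CD44- libraries. The groups did not overlap. OG exceeded R26 by 1.52 ± 0.05 (adjusted p = 7.35e-18) in CD44+ cells and 1.56 ± 0.05 (adjusted p = 3.43e-18) in CD44- cells. The CD44 differences of 0.43 ± 0.05 in OG and 0.47 ± 0.05 in R26 were not called different by the interaction test (-0.04 ± 0.07, adjusted p = 0.735). Fscn1, fascin, which packs filaments into the bundles of filopodia, was rare. It measured 7.81, 6.15, 8.23 and 5.58 CPM in OG CD44+ libraries, 3.58, 1.67, 2.55 and 2.99 in OG CD44- libraries, 3.93, 1.90, 2.42 and 2.07 in R26 CD44+ libraries and 0.322, 0, 0.263 and 0.194 in R26 CD44- libraries, with 11 counts over the 4 R26 CD44- libraries, so fitted values against that group rest on few reads. OG CD44+ libraries lay above all others, and the fitted difference was 1.41 ± 0.27 (adjusted p = 5.9e-05) between CD44+ sorts and 3.71 ± 0.41 (adjusted p = 2.08e-08) between CD44- sorts. Lasp1, a LIM and SH3 protein of adhesions, averaged 321 ± 7.995 CPM in OG CD44+ cells, 246 ± 8.59 in OG CD44- cells, 153 ± 9.33 in R26 CD44+ cells and 141 ± 6.67 in R26 CD44- cells, with an interaction of 0.27 ± 0.07 (adjusted p = 0.00516).

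**Figure D4:**
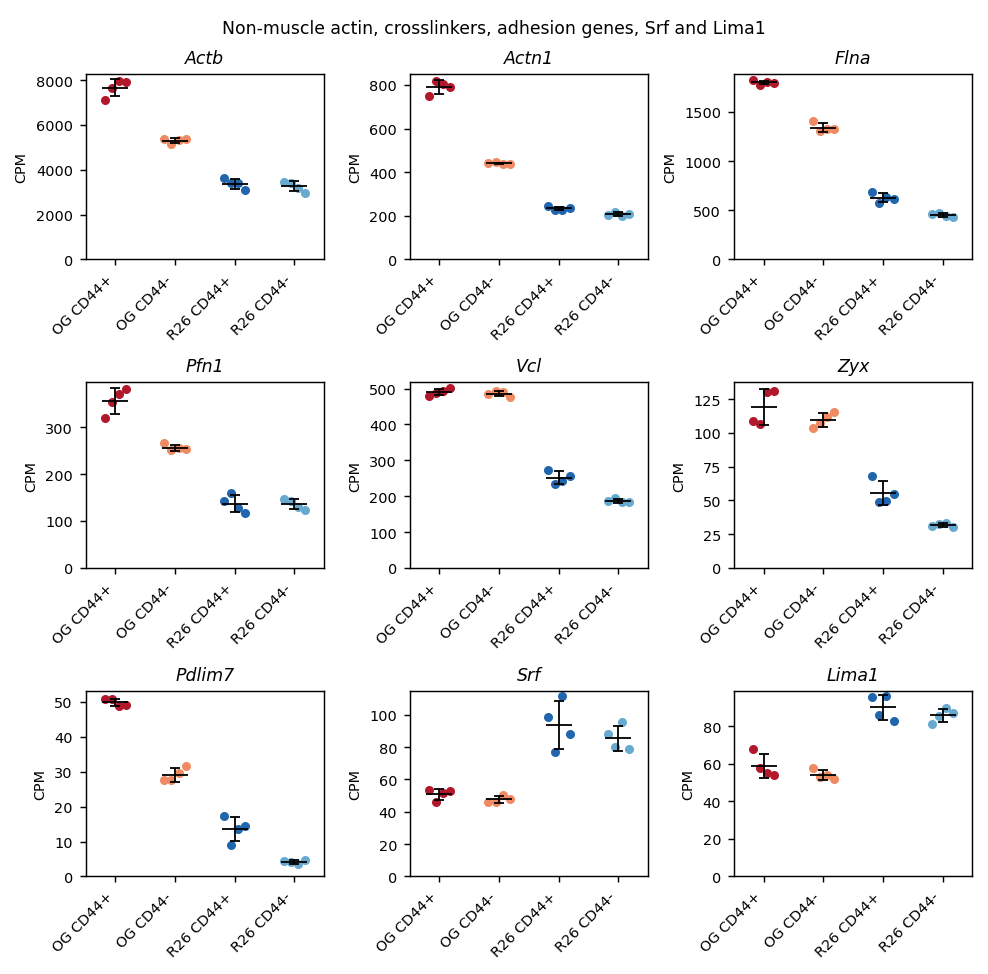
CPM of 9 of the 29 non-muscle genes in each library, with points for animals and bars for mean ± SD (n = 4); each panel starts at 0. Actb, Actn1, Flna, Pfn1 and Pdlim7 step down from OG CD44+ to OG CD44- to the R26 groups, Vcl and Zyx overlap between the OG sorts, and Srf and Lima1 are higher in R26.

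Lima1, which encodes the filament-stabilising protein EPLIN of epithelial junctions, was lower in OG. It measured 68.0, 57.6, 55.3 and 54.0 CPM in OG CD44+ libraries, 57.5, 52.7, 54.1 and 52.0 in OG CD44- libraries, 95.6, 85.9, 95.9 and 82.7 in R26 CD44+ libraries and 81.4, 85.2, 89.7 and 87.2 in R26 CD44- libraries. All R26 libraries lay above all OG libraries. OG against R26 gave -0.62 ± 0.07 (adjusted p = 1.71e-08) in CD44+ cells and -0.67 ± 0.07 (adjusted p = 3.32e-09) in CD44- cells, and the CD44 difference was not called in OG (0.12 ± 0.07, adjusted p = 0.156) or R26 (0.07 ± 0.07, adjusted p = 0.45). Of the boxes printed above, that of Lima1 lies nearest to the start site of its window, a start inside the gene. Which start site its reads came from was not tested.

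All 3 proteins that bind actin monomers or filament ends were higher in OG in both sorts, against 29.1% of all genes. Pfn1, profilin, which loads monomers onto growing ends, measured 318, 353, 369.8 and 381 CPM in OG CD44+ libraries, 265, 251, 256 and 252 in OG CD44- libraries, 142, 160.2, 128 and 117 in R26 CD44+ libraries and 147, 143, 131 and 123 in R26 CD44- libraries. OG CD44+ libraries were highest and both R26 sorts overlapped. OG exceeded R26 by 1.38 ± 0.08 (adjusted p = 2.16e-12) in CD44+ cells, and the interaction was 0.46 ± 0.11 (adjusted p = 0.0038). Cfl1, cofilin, which severs filaments, averaged 349 ± 21.8 CPM in OG CD44+ cells, 261 ± 9.54 in OG CD44- cells, 150.4 ± 7.20 in R26 CD44+ cells and 141 ± 2.96 in R26 CD44- cells and behaved alike, with 0.42 ± 0.05 between OG sorts, 0.09 ± 0.05 between R26 sorts and an interaction of 0.33 ± 0.07 (adjusted p = 0.00114). Capg, which caps filament ends, measured 49.6, 54.3, 53.3 and 63.5 CPM in OG CD44+ libraries, 60.7, 63.7, 68.0 and 70.5 in OG CD44- libraries, 34.7, 37.8, 26.8 and 27.0 in R26 CD44+ libraries and 34.0, 37.1, 36.1 and 32.6 in R26 CD44- libraries. It was the 1 gene called lower in OG CD44+ than in OG CD44- cells (-0.25 ± 0.09, adjusted p = 0.0224), and these groups overlapped. OG exceeded R26 in Capg by 0.91 ± 0.09 (adjusted p = 1.2e-08) in CD44- cells.

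Of 6 adhesion and LIM domain genes, 5 were higher in OG in both sorts, against 29.1% of all genes. Pxn was lower in OG in the CD44- sort, as were 29.6% of all genes. Vcl, vinculin, which reinforces loaded adhesions and carries a CArG box 227 bases before its start site, measured 480.2, 489, 492 and 502 CPM in OG CD44+ libraries, 484, 492, 492 and 476 in OG CD44- libraries, 274, 235, 243 and 256 in R26 CD44+ libraries and 186, 195, 183 and 183 in R26 CD44- libraries. The OG sorts overlapped and stood above both R26 sorts, and R26 CD44+ stood above R26 CD44-. Vcl was 2.60-fold higher in OG in CD44- cells (1.38 ± 0.05, adjusted p = 5.35e-18) and 1.95-fold in CD44+ cells (0.96 ± 0.05, adjusted p = 5.37e-15). Its CD44 difference was 0.01 ± 0.05 (adjusted p = 0.826) in OG and 0.43 ± 0.05 (adjusted p = 9.93e-08) in R26, with an interaction of -0.42 ± 0.07 (adjusted p = 4.36e-05). Of the exon bases of Vcl, 25.5% overlap Ap3m1 on the other strand, so some reads may belong to that gene. Shares of 50-base words found in other genes were also high for Cnn3 (24.0%), Tpm3 (23.2%) and Cfl1 (18.3%).

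Zyx, zyxin, which is recruited to adhesions under tension, stood in the order of Vcl. It measured 109, 107, 130.4 and 131 CPM in OG CD44+ libraries, 103, 107, 112 and 115 in OG CD44- libraries, 68.0, 48.9, 49.5 and 54.5 in R26 CD44+ libraries and 31.1, 32.4, 33.6 and 30.4 in R26 CD44- libraries. R26 CD44- libraries were the lowest, R26 CD44+ libraries came next, and the OG sorts overlapped above them. OG exceeded R26 by 1.78 ± 0.09 (adjusted p = 4.09e-13) in CD44- cells and 1.11 ± 0.09 (adjusted p = 6.57e-10) in CD44+ cells, and the interaction was -0.67 ± 0.13 (adjusted p = 0.000542). Pdlim7, a PDZ and LIM protein of stress fibres, showed larger steps. It measured 50.7, 50.7, 48.9 and 49.2 CPM in OG CD44+ libraries, 27.6, 27.7, 29.5 and 31.6 in OG CD44- libraries, 17.4, 9.15, 13.6 and 14.4 in R26 CD44+ libraries and 4.34, 4.25, 3.49 and 4.59 in R26 CD44- libraries. No groups overlapped, OG CD44+ libraries were highest, and R26 CD44- libraries lowest.

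Pdlim7 was 6.99-fold higher in OG in CD44- cells (2.80 ± 0.13, adjusted p = 2.03e-15) and 3.62-fold in CD44+ cells (1.86 ± 0.11, adjusted p = 3.42e-13), with a CD44 difference of 0.78 ± 0.10 in OG, 1.73 ± 0.14 in R26 and an interaction of -0.95 ± 0.17 (adjusted p = 0.000291). Its relative Pdlim5 took the opposite interaction (0.55 ± 0.10, adjusted p = 0.000186): it averaged 72.7 ± 4.45 CPM in OG CD44+ cells, 44.0 ± 1.79 in OG CD44- cells, 42.5 ± 4.78 in R26 CD44+ cells and 37.9 ± 1.58 in R26 CD44- cells. The OG excess of Pdlim5 in CD44- cells (0.22 ± 0.07, adjusted p = 0.0073) lost its call under upper quartile scaling (adjusted p = 0.191) and in each of the 8 fits without 1 R26 library (0.0702 to 0.312). Tln1, talin, the link between integrins and actin, averaged 489.9 ± 11.9 CPM in OG CD44+ cells, 467 ± 14.8 in OG CD44- cells, 389 ± 31.9 in R26 CD44+ cells and 358 ± 21.3 in R26 CD44- cells, with OG over R26 of 0.33 ± 0.05 (adjusted p = 8.83e-06) in CD44+ cells and 0.38 ± 0.05 (adjusted p = 1.14e-06) in CD44- cells.

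Pxn, paxillin, an adhesion scaffold, was highest in R26 CD44- cells. It measured 169, 178, 183 and 179.9 CPM in OG CD44+ libraries, 176, 155, 172 and 174 in OG CD44- libraries, 173, 172, 164 and 174 in R26 CD44+ libraries and 199, 207, 203 and 195 in R26 CD44- libraries. The R26 CD44- libraries lay above all others, and the other 3 groups overlapped. Pxn was lower in R26 CD44+ than in R26 CD44- cells (-0.24 ± 0.05, adjusted p = 0.000239) and lower in OG CD44- than in R26 CD44- cells (-0.24 ± 0.05, adjusted p = 4.62e-05), and the interaction was 0.30 ± 0.06 (adjusted p = 0.00126). With Actn4 it was 1 of the 2 genes called lower in the R26 CD44 comparison.

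In the calponin and transgelin family, Cnn1 and Tagln were lower in OG in the CD44+ sort, where the 3 non-muscle relatives were higher. Of all genes, 34.6% were lower and 34.5% higher there. In the CD44- sort 4 of the 5 genes, Tagln among them, were higher in OG and 0 lower, against 39.4% and 29.6%. Cnn3, the acidic calponin of non-muscle cells, measured 29.5, 25.6, 25.6 and 26.3 CPM in OG CD44+ libraries, 9.52, 9.36, 8.07 and 10.2 in OG CD44- libraries, 20.5, 11.4, 14.1 and 13.5 in R26 CD44+ libraries and 2.98, 2.67, 2.70 and 1.87 in R26 CD44- libraries. OG CD44+ libraries were highest with no overlap, and R26 CD44- libraries lowest. Cnn3 was 2.89-fold higher by CD44 sort in OG (1.53 ± 0.13, adjusted p = 2.46e-09) and 5.89-fold in R26 (2.56 ± 0.17, adjusted p = 4.59e-11), with an interaction of -1.03 ± 0.22 (adjusted p = 0.00132), and OG exceeded R26 in CD44+ cells by 0.84 ± 0.13 (adjusted p = 5.63e-06). Cnn2, the widespread calponin with a CArG box in the window shown, averaged 335 ± 8.55 CPM in OG CD44+ cells, 305 ± 9.10 in OG CD44- cells, 219 ± 6.92 in R26 CD44+ cells and 234 ± 4.10 in R26 CD44- cells. Its OG sorts differed by 0.13 ± 0.04 (adjusted p = 0.00839), its R26 sorts by -0.10 ± 0.04 (adjusted p = 0.0675), and the interaction was 0.23 ± 0.06 (adjusted p = 0.00484). Per length, Cnn1 was 0.504 ± 0.0774% of the 3 calponins in OG CD44+, 0.448 ± 0.108% in OG CD44-, 2.03 ± 0.440% in R26 CD44+ and 0.463 ± 0.162% in R26 CD44- cells. Tagln2, the transgelin of non-muscle cells, ranged over 307 to 323, 302 to 330.4, 284 to 297 and 269.6 to 309 CPM in those groups. Its OG excess was small, 0.14 ± 0.05 (adjusted p = 0.0091) in CD44+ cells and 0.15 ± 0.05 (adjusted p = 0.00821) in CD44- cells, and upper quartile scaling ended both calls (adjusted p = 0.121 and 0.595).

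Srf, the transcription factor named above, was lower in OG. It measured 53.3, 46.0, 51.3 and 52.9 CPM in OG CD44+ libraries, 46.1, 46.2, 50.6 and 47.8 in OG CD44- libraries, 98.8, 77.0, 112 and 88.1 in R26 CD44+ libraries and 87.9, 80.04, 95.4 and 78.8 in R26 CD44- libraries. All R26 libraries lay above all OG libraries, and the sorts overlapped within each prefix. OG against R26 gave -0.89 ± 0.09 (adjusted p = 1.85e-08) in CD44+ cells, 1.85-fold lower, and -0.84 ± 0.09 (adjusted p = 3.16e-08) in CD44- cells, 1.79-fold lower, and the CD44 differences were 0.09 ± 0.09 (adjusted p = 0.426) in OG and 0.14 ± 0.09 (adjusted p = 0.229) in R26. Of the 6 genes with an exact CArG box in the window, Srf and Lima1 were lower in OG in both sorts, Actg1, Cnn2 and Vcl were higher in both, and Myl9 was higher in the CD44- sort. The cofactor Mrtfa gave 0.02 ± 0.07 (adjusted p = 0.793) in CD44+ cells and 0.00 ± 0.07 (adjusted p = 0.981) in CD44- cells, and Mrtfb 0.24 ± 0.05 (adjusted p = 8.75e-05) and 0.12 ± 0.05 (adjusted p = 0.0292). Fhl2, a LIM cofactor of SRF, averaged 7.30 ± 0.594 CPM in OG CD44+ cells, 1.92 ± 0.628 in OG CD44- cells, 1.04 ± 0.625 in R26 CD44+ cells and 0.271 ± 0.155 in R26 CD44- cells and was higher in OG by 2.79 ± 0.31 (adjusted p = 2.37e-08) in CD44+ cells and 2.77 ± 0.41 (adjusted p = 1.84e-06) in CD44- cells.

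**Figure D5:**
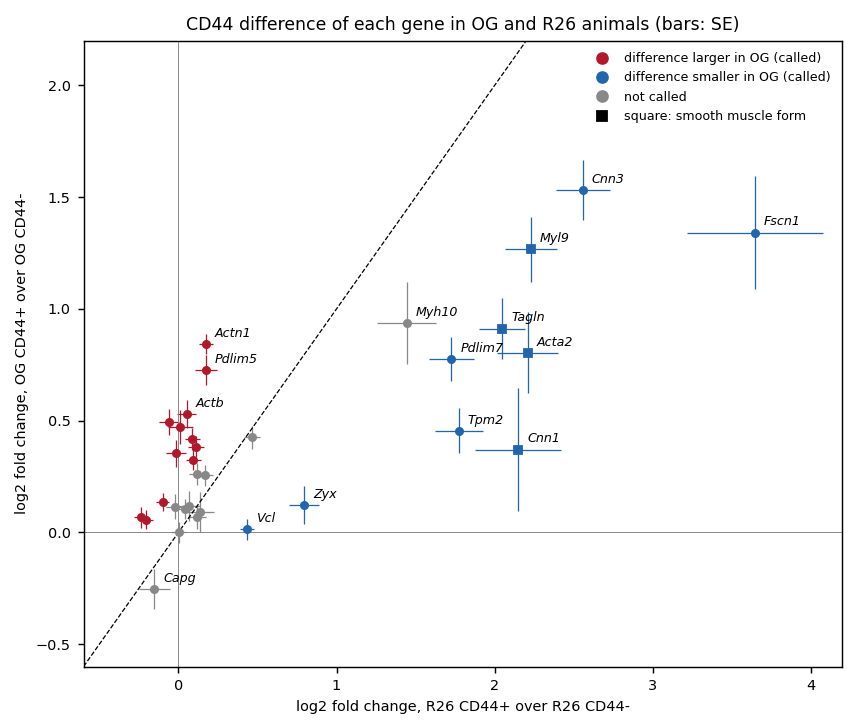
Log2 fold change of CD44+ over CD44- cells for each gene in OG animals (vertical axis) and R26 animals (horizontal axis), with bars for 1 SE and a dashed line where both are equal. The 10 genes called below the line (blue) include the 4 smooth muscle forms (squares), and the 12 called above it (red) are non-muscle genes, which lie between -0.24 (Pxn) and 0.17 (Actn1) in R26.

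The test of the CD44 difference itself, on the log2 scale, thus divided the genes. Above 0 were Actb, Actg1, Myl12a, Myl12b, Actn1, Actn4, Lasp1, Cfl1, Pfn1, Pxn, Pdlim5 and Cnn2, from 0.23 for Actg1 to 0.67 for Actn1. Below 0 were Acta2, Tagln, Cnn1, Myl9, Tpm2, Fscn1, Vcl, Zyx, Pdlim7 and Cnn3, from -0.42 for Vcl to -2.31 for Fscn1, which had 11 counts in R26 CD44- libraries. A gene below 0 can still take the larger step in CPM in OG, where R26 CD44- levels are low. Pdlim7 did, from 29.1 to 49.9 CPM in OG and from 4.17 to 13.6 CPM in R26, as did Cnn3, Tpm2 and Fscn1. With the animal as a block, these 22 calls held and Tpm4 was added above 0.

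Further genes of the pathway were counted over 8 lists, 138 genes of which 132 were tested. In OG CD44+ against OG CD44- cells 57 were higher (43.2%, against 22.3% of all genes) and 26 lower (19.7%, against 28.0%). In R26 CD44+ against R26 CD44- cells 50 were higher (37.9%, against 21.6%) and 15 lower (11.4%, against 15.4%). In OG against R26, 75 were higher (56.8%, against 39.4%) and 31 lower (23.5%, against 29.6%) in the CD44- sort, and 71 (53.8%, against 34.5%) and 39 (29.5%, against 34.6%) in the CD44+ sort. The counts of single lists that follow stand against the same all-gene shares. The Arp2/3 complex, which nucleates branched filaments, was higher in OG for 8 of 9 genes tested in each sort, with 0 lower. Arpc4 averaged 126 ± 6.01 CPM in OG CD44+ cells, 101 ± 3.67 in OG CD44- cells, 61.1 ± 5.72 in R26 CD44+ cells and 62.5 ± 6.90 in R26 CD44- cells. By CD44 sort, 3 Arp2/3 genes were higher and 1 lower in OG, and 0 and 2 in R26. Of the WAVE complex and other Arp2/3 activators, 9 of 10 were higher in OG in CD44- cells and 8 in CD44+ cells, with 1 lower in each. Cttn, cortactin, which stabilises branches, was 2.09-fold higher in OG in CD44- cells (1.06 ± 0.06, adjusted p = 1.28e-13).

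Of 18 monomer, severing and capping genes tested, 13 were higher and 3 lower in OG in the CD44- sort, and 12 and 3 in the CD44+ sort. Pfn2, a second profilin, averaged 42.7 ± 4.77 CPM in OG CD44+ cells, 65.9 ± 2.30 in OG CD44- cells, 7.77 ± 1.33 in R26 CD44+ cells and 6.40 ± 0.619 in R26 CD44- cells, and was 10.2-fold higher in OG in CD44- cells (3.36 ± 0.10, adjusted p = 3.45e-19). Tmsb10, a monomer-binding thymosin, was higher in CD44+ cells of OG (1.29 ± 0.11, adjusted p = 1.1e-09) and of R26 (0.42 ± 0.12, adjusted p = 0.00784). Of 29 other crosslinkers and myosins, 16 were higher and 10 lower in OG CD44+ than in R26 CD44+ cells. Flnc, the filamin of striated muscle, averaged 89.3 ± 3.86 CPM in OG CD44+ cells, 62.8 ± 4.34 in OG CD44- cells, 8.47 ± 1.64 in R26 CD44+ cells and 1.43 ± 0.468 in R26 CD44- cells, a fitted difference of 5.48 ± 0.13 (adjusted p = 8.71e-21) in CD44- cells and 3.39 ± 0.10 (adjusted p = 6.55e-19) in CD44+ cells. Of 9 SRF cofactors, 4 were higher and 3 lower in OG CD44+ than in R26 CD44+ cells, and 5 and 2 in the CD44- sort.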

How the data were processed

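Counts per gene were measured by RNA sequencing of total RNA from 16 libraries of sorted AT2 cells. The table holds raw whole-number counts per gene as deposited, with no normalization. The submitters' processing notes name Bowtie2 and the build mm10. The counting program, annotation and strand setting are not given in the sources used here. Symbols were matched for 25275 of 27179 identifiers (93.0%), and 1 identifier without a symbol held 7.32% of counts and stayed in.

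Genes were filtered with filterByExpr, scaled by TMM (factors 0.897 to 1.08) and tested in R 4.3.3 with edgeR 4.0.16, robust quasi-likelihood F test, 1 mean per group over all 16 libraries, Benjamini-Hochberg adjusted over 15516 genes. The SE was taken as the absolute log2 fold change over the root of the F statistic. The step was tested on simulated data in which few genes changed, evenly up and down, and animals were not paired. Many more genes were called in the real data, so that test does not cover the scaling here. Column headers number the animals, so p-values measure the spread between the 4 animals of a group, and the numbers pair the sorts of one animal. Deviations of same-animal libraries correlated at 0.0208 to 0.0959 in OG and 0.128 to 0.241 in R26. A library total of 9022471 makes 3 counts worth 0.333 CPM, which covers counting error only.

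The 33 genes and all lists were chosen with earlier results of these data known. Values per library are given for the 4 smooth muscle forms, up to 4 called genes in each direction per comparison whose log2 CPM averaged 4 or more, and (some by mean) those the interaction called. From each pathway list up to 2 called genes were taken by the same rule, and some pathway results are not reported here. Fhl2, Mrtfa, Mrtfb and Mylk were chosen outside it, after their values were seen. Lengths, overlaps and shared 50-base words come from GENCODE transcripts of GRCm38, promoter windows from RefSeq GRCm38.p6. Alternatives were DESeq2 size factors, upper quartile scaling, the DESeq2 1.42.0 Wald test, limma 3.58.1 voom with quality weights, no filter, at least 50 counts in 4 libraries, the 8 libraries compared alone, the animal block and leaving out each library.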

Additional observations from a re-analysis of the deposited data

Results flagged for a closer look

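In 6 of 132 sets of 4 libraries (33 genes in 4 groups), 1 library stood far from the other 3, where chance gives about 1 in 20. Acta2 was at 16.7 CPM in OG CD44- animal 3, against 19.97 to 20.2 in the other 3 animals. Myh10 was at 78.3 CPM in OG CD44+ animal 3, against 44.8 to 48.4. Flna was at 1408 CPM in OG CD44- animal 3, against 1308 to 1321. Myl12a was at 43.7 CPM in R26 CD44- animal 1, against 48.6 to 49.1. Tln1 was at 472 CPM in OG CD44+ animal 5, against 494 to 498, and Tagln2 at 307 CPM in OG CD44+ animal 7, against 323. OG animal 3 holds 3 of the 6.

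The CD44 difference was tested between prefixes and differed for 22 genes. It was larger in OG, on the log2 scale, by 0.48 for Actb, 0.23 for Actg1, 0.55 for Myl12a, 0.37 for Myl12b, 0.67 for Actn1, 0.26 for Actn4, 0.27 for Lasp1, 0.33 for Cfl1, 0.46 for Pfn1, 0.30 for Pxn, 0.55 for Pdlim5 and 0.23 for Cnn2. The difference in OG minus that in R26 was -1.41 for Acta2, -0.96 for Myl9, -1.14 for Tagln, -1.78 for Cnn1, -1.32 for Tpm2, -2.31 for Fscn1, -0.42 for Vcl, -0.67 for Zyx, -0.95 for Pdlim7 and -1.03 for Cnn3. Of 12 mural cell markers tested, 9 also had an interaction below 0, against 18.1% of all genes, and their part was not tested.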

How the results depend on the processing

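Of 165 results (33 genes in 5 comparisons), 132 kept their direction and their side of the threshold under every alternative that gave them a value (22 to 24 each), and 0 reversed. The count of genes lower in OG CD44+ than in OG CD44- cells, 1 (Capg), was 0 under upper quartile scaling (adjusted p = 0.112) and 0 with at least 50 counts in 4 libraries (0.0570), and ranged over 0 to 1 when 1 library was left out. It was 0 without any 1 of R26 CD44- animals 1, 2, 7 and 8, R26 CD44+ animal 1, OG CD44- animals 6 and 7, and OG CD44+ animals 3, 5 and 6 (0.0512 to 0.0732). The count lower in R26 CD44+ than in R26 CD44- cells, 2, ranged over 2 to 5 when 1 library was left out, with 5 without R26 CD44+ animal 2 or 7 and 4 without R26 CD44- animal 1 or R26 CD44+ animal 1. The cause was not tested. The other 8 counts stayed within 1.5 times their value under every alternative run. Some uncalled differences passed under 11 or 12 alternatives: Actn4 and Pxn as higher in OG CD44+ than in OG CD44- cells (12 and 11 of 24), Cnn2 as lower in R26 CD44+ than in R26 CD44- cells (11 of 24) and the interaction of Tpm4 (12 of 23). In OG CD44- against R26 CD44- cells, Tagln2 lost its call under 5 other settings and without any 1 of the 8 R26 libraries (adjusted p up to 0.880) and Actn4 without R26 CD44- animal 8 (0.0590). Depth limits Fscn1 (11 counts in R26 CD44- libraries) and Cnn1 (58 counts). The replicate block, with each animal as a term, gave 23, 20 and 13 genes above 0 in the OG, R26 and interaction fits, against 21, 14 and 12 without it, and changed no call beyond those named beside the results and Tpm4.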

Other observations

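Of 14 formins and Ena/VASP genes, 5 were higher and 4 lower in OG CD44- than in R26 CD44- cells (35.7% and 28.6%, against 39.4% and 29.6% of all genes), and 6 and 5 in the CD44+ sort (42.9% and 35.7%, against 34.5% and 34.6%). These shares lay near those of all genes. The formin Inf2 averaged 183 ± 10.7 CPM in OG CD44+ cells, 173 ± 5.37 in OG CD44- cells, 33.6 ± 3.25 in R26 CD44+ cells and 22.2 ± 0.346 in R26 CD44- cells (OG over R26 2.44 ± 0.06, adjusted p = 2.11e-20 in CD44+ cells and 2.96 ± 0.06, adjusted p = 8.11e-22 in CD44- cells). The formin Daam2 was lower in OG CD44+ than in R26 CD44+ cells (-1.03 ± 0.06, adjusted p = 5.22e-13). Rhob, a small GTPase, averaged 185 ± 12.6 CPM in OG CD44+ cells, 108 ± 3.44 in OG CD44- cells, 277 ± 32.3 in R26 CD44+ cells and 242 ± 4.35 in R26 CD44- cells, lower in OG in CD44- cells (-1.16 ± 0.06, adjusted p = 9.24e-14). Limk1, a kinase that inactivates cofilin, averaged 36.5 ± 2.81 CPM in OG CD44+ cells, 65.4 ± 3.10 in OG CD44- cells, 39.0 ± 3.08 in R26 CD44+ cells and 44.8 ± 2.14 in R26 CD44- cells, lower in OG CD44+ than in OG CD44- cells (-0.84 ± 0.07, adjusted p = 3.79e-10).

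Of 26 further focal adhesion genes, 11 were higher and 9 lower in OG CD44- than in R26 CD44- cells, and 9 and 13 in the CD44+ sort, with 42.3% higher in the CD44- sort, against 39.4% of all genes, and 50% lower in the CD44+ sort, against 34.6%. Fblim1, a filamin-binding LIM protein, averaged 58.2 ± 7.27 CPM in OG CD44+ cells, 17.3 ± 1.29 in OG CD44- cells, 18.3 ± 6.24 in R26 CD44+ cells and 3.38 ± 0.316 in R26 CD44- cells. It was higher by CD44 sort in OG (1.75 ± 0.16, adjusted p = 1.23e-07) and in R26 (2.45 ± 0.22, adjusted p = 1.52e-07), and higher in OG in both sorts. Gsn, gelsolin, which severs filaments and also marks fibroblasts, averaged 913 ± 57.6 CPM in OG CD44+ cells, 538 ± 22.4 in OG CD44- cells, 1021 ± 272 in R26 CD44+ cells and 256 ± 33.9 in R26 CD44- cells, the order of Acta2.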
